A study of Mus musculus with 10 samples.

Results

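The data concern 10 genes known as markers of large peritoneal macrophages, the resident macrophages of the abdominal cavity, and their RNA levels in macrophages sorted from mouse pancreas and pancreatic tumours. The genes were Gata6, Prg4, Icam2, Selp, F5, Naip1, Saa3, Garnl3, Lrg1 and Aspa, picked by symbol from a table of 12535 genes, and all 10 were found there. They were proposed with the levels of these libraries already in view, so their values are given as a description, with no test. All 10 passed a filter on low values (at least 1 FPKM, fragments scaled to gene length and library size, in at least 3 libraries), as did 11127 genes in all.

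Cells positive for CD45, CD11b and F4/80, surface markers of leukocytes, myeloid cells and macrophages, were sorted for RNA-seq. Tumour-associated macrophages (TAM) came from orthotopic pancreatic tumours 14 days after cells of MT4, 1 organoid line of the KPC pancreatic adenocarcinoma model, had been implanted. The cKO-labelled TAM (n = 3) were from C57/BL6 Ahr fl/fl mice that also carried Lys M, a Cre recombinase at the lysozyme 2 locus that acts in myeloid cells in general, against the floxed aryl hydrocarbon receptor gene. Control TAM (n = 3) were from C57/BL6 Ahr fl/fl mice without it, and resident macrophages (n = 4) from the healthy pancreas of C57/BL6 WT mice, which differ from control TAM in genotype label as well as in tumour. The labels give no sex: Ddx3y, a Y-linked gene, was at 0.543 to 0.832 FPKM in cKO-labelled TAM, 0.580 to 0.796 in control TAM and 0 to 0.0602 in resident libraries, and Xist, the RNA of the inactive X chromosome, at 0.846 to 1.09, 1.11 to 1.31 and 1.19 to 1.51. Whether sex, or RNA of other cells, has a part in the levels of the markers was not tested. RNA was extracted with either of 2 kits, and the labels do not say which library had which.

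Large peritoneal macrophages are long-lived cells that patrol the cavity, clear dying cells and seal injuries of its lining. The zinc finger factor GATA6 gives them much of their identity, and in mice whose macrophages lack Gata6 a large share of their typical genes is lost, Aspa among them. Retinoic acid made by the lining and the fat of the cavity keeps Gata6 on. The same genes are used by other cells too: Icam2 and Selp by endothelium and platelets, Lrg1 by neutrophils and liver, Saa3 by many inflamed tissues, and Prg4 by the lining of joints.

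Promoter windows of the markers are shown first, because Gata6 encodes a factor that binds GATA motifs. RefSeq windows of 300 bases (250 before to 50 after the start site, build GRCm38.p6) were matched for 7 of the 10 genes, in 8 windows; Gata6, Prg4 and Icam2 had no printed window. The motif GATAA, read on both strands (TTATC), was found in the window of 1 of these 7 genes, Saa3. Of all 27025 genes with a window 28.4% held it, and of all 32851 windows 25.4%. The longer form AGATAA, which contains GATAA and was also read on both strands, was found again in Saa3 only among the 7. It was found in 12.7% of all genes and in 11.2% of all windows. TTGCNNAA (TTNNGCAA on the other strand), a core of sites for C/EBP factors that induce acute phase genes, was looked for after values and sequences had been seen. It too was found only in the Saa3 window among the 7 genes, and in 10.8% of all windows. A match is only a string of letters, and its absence says nothing of sites outside the window. The windows of Saa3 and Lrg1 are shown because these 2 secreted proteins had the highest levels and almost the same ratio between groups, and that of Aspa because its RNA depends on Gata6 in mouse peritoneal macrophages. Capitals mark the TTATC that begins 134 bases before the start site of Saa3 and the TTATGCAA that begins 99 bases before it; the other 2 windows hold no match. The positions are chr7:46715627-46715926 (minus strand) for Saa3, chr17:56121897-56122196 (minus strand) for Lrg1 and chr11:73324588-73324887 (minus strand) for Aspa, whose RefSeq start site lies inside the GENCODE gene.
Saa3: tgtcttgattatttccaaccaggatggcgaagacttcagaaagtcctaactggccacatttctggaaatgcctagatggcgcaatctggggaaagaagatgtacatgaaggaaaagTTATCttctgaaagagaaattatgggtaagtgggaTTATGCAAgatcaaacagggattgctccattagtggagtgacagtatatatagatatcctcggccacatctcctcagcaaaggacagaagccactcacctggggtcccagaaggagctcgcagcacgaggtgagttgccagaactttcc
Lrg1: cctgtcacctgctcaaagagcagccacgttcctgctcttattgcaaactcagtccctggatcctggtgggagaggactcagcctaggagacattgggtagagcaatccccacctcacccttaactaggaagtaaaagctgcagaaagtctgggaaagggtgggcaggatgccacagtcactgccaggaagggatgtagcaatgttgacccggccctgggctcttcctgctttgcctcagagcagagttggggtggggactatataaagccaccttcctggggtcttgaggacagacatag
Aspa: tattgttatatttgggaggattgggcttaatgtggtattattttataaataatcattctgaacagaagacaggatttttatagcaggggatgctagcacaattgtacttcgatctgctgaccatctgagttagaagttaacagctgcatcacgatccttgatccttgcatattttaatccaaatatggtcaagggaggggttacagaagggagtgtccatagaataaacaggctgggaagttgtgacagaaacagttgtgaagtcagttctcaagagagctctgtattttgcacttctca

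Between 10127107 reads (replicate 2 of control TAM) and 25621430 reads (replicate 3 of cKO-labelled TAM) lay behind each library, as recovered from the steps of its low FPKM values. Genes called by limma at an adjusted p under 0.05 made up 39.6% of those tested between cKO-labelled and control TAM and 77.1% between control TAM and resident macrophages. The markers thus rested on about 57 reads (Gata6 in resident replicate 3) to about 117494 reads (Saa3 in cKO-labelled replicate 3) per library, taking a gene to be as long as its longest annotated transcript. Ahr, the targeted gene, was at 10.2, 11.2 and 9.65 FPKM in cKO-labelled TAM, 7.11, 6.91 and 7.51 in control TAM and 3.84 to 4.46 in resident libraries. A value summed over the whole gene cannot show whether the floxed part is gone, so these libraries are named as labelled. Of the macrophage-defining genes, all 9 listed were tested and none was at 0 in any library. Their summed level was 13877 to 14276 FPKM in cKO-labelled TAM, 22583 to 22727 in control TAM and 31017 to 31913 in resident macrophages. Most of it was Lyz2, the locus of the Cre, with means of 11460, 19904 and 28140 FPKM in the 3 groups. The differences of the sum were thus mostly those of this gene. In bulk RNA, fewer cells of a type and less RNA per cell cannot be told apart.

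Control TAM held more RNA of all 10 markers than resident macrophages did, with no overlap of the groups, where 37.3% of all genes tested were higher in this way. In 9 of the 10 the mean was at least 2-fold higher, against 13.5% of all genes. Between the tumour groups 6 markers were lower in cKO-labelled than in control TAM without overlap (25.5% of all genes), 2 were higher without overlap (25.9%) and 2 overlapped. None of the 10 was 2-fold apart there, where 2.1% of all genes were at least 2-fold higher and 0.737% at least 2-fold lower without overlap. The members were chosen with these contrasts in view, so nothing is read from the shares. Their median difference of mean log2(FPKM + 1) was -0.14 for cKO-labelled minus control TAM (0.0125 over all genes tested) and 2.32 for control TAM minus resident (0.0017 over all genes).

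**Figure D1:**
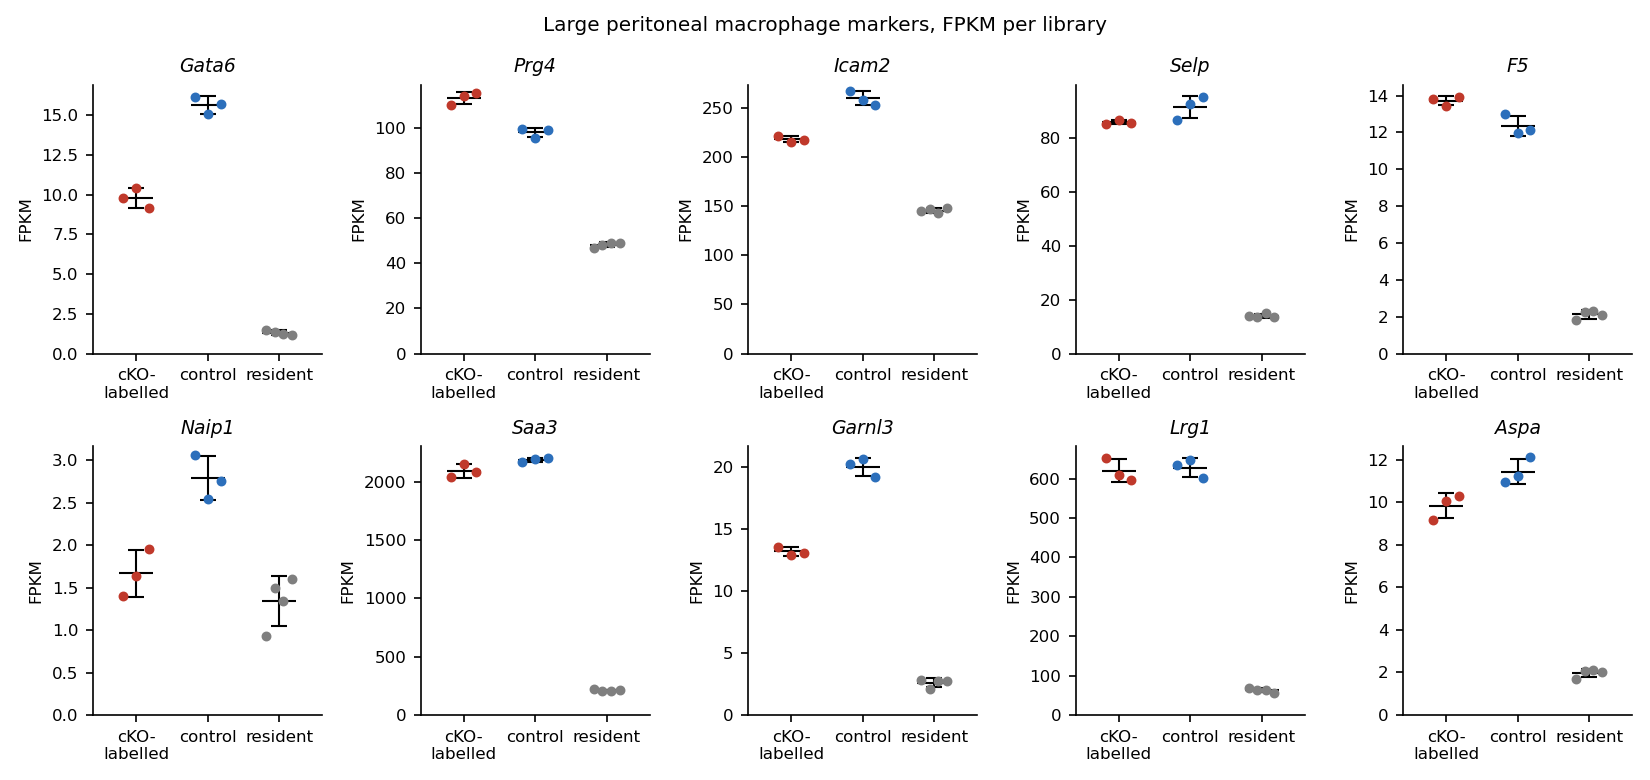
FPKM of each marker in each library (points) with the mean and SD of each group (bars), cKO-labelled TAM (n = 3), control TAM (n = 3) and resident macrophages (n = 4), each axis from 0. In all 10 panels the control TAM points lie above the resident points, and for Gata6, Garnl3 and Naip1 the cKO-labelled points lie well below control TAM.

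Gata6 (ENSMUSG00000005836, GRCm38 chromosome 18, 11052064 to 11085635, plus strand), the regulator of the group, was at 9.81, 10.4 and 9.14 FPKM in cKO-labelled TAM, 16.2, 15.1 and 15.7 in control TAM and 1.51, 1.36, 1.24 and 1.17 in resident libraries. The 3 groups did not overlap, with control TAM highest and resident macrophages lowest. The cKO-labelled mean was 0.626 times that of control TAM (log2 difference -0.63 ± 0.07, SE), and the control TAM mean 11.9 times that of resident macrophages (2.84 ± 0.07). Log2 differences here are of mean log2(FPKM + 1), which understates the change of low genes such as this one. On the linear scale the cKO-labelled mean stood at 59.1% of the way from the resident to the control TAM mean. By level, Gata6 ranked 5038 in cKO-labelled TAM, 3787 in control TAM and 9837 in resident macrophages among 11127 genes. It was thus of middling abundance in TAM and among the scarcer RNAs in resident macrophages.

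Icam2 and Selp encode proteins that sit on the cell surface. ICAM-2 is a ligand of the leukocyte integrin LFA-1 and is used to sort large peritoneal macrophages, and P-selectin, the product of Selp, is an adhesion receptor that binds PSGL-1. Icam2 (ENSMUSG00000001029, chromosome 11, 106377656 to 106388075, minus strand) was at 221, 216 and 217 FPKM in cKO-labelled TAM, 268, 258 and 253 in control TAM and 143 to 148 in resident libraries. It had the smallest ratio of control TAM to resident macrophages of the 10 genes (1.78), and cKO-labelled TAM stood at 0.840 times control TAM (log2 difference -0.25 ± 0.03). Selp (ENSMUSG00000026580, chromosome 1, 164115264 to 164150026, plus strand) was at 85.3, 86.7 and 85.5 FPKM in cKO-labelled TAM, 86.7, 92.5 and 94.9 in control TAM and 13.4 to 14.9 in resident libraries. The tumour groups overlapped, and control TAM held 6.55 times as much as resident macrophages (log2 difference 2.63 ± 0.04).

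Prg4, Saa3, Lrg1 and F5 encode secreted proteins. Saa3 (ENSMUSG00000040026, chromosome 7, 46711998 to 46715700, minus strand), a serum amyloid A apolipoprotein of the acute phase, was the most abundant marker, at 2035, 2153 and 2084 FPKM in cKO-labelled TAM, 2166, 2190 and 2203 in control TAM and 203 to 220 in resident libraries. It ranked 23 in cKO-labelled TAM, 20 in control TAM and 262 in resident macrophages among the genes tested. Control TAM held 10.4 times the resident level, and the cKO-labelled libraries lay just below control TAM without overlap, at 0.957 times its mean. Lrg1 (ENSMUSG00000037095, chromosome 17, 56119678 to 56122001, minus strand), a leucine-rich glycoprotein that modifies TGF-beta signalling in endothelium, was at 653, 609 and 598 FPKM in cKO-labelled TAM, 635, 647 and 602 in control TAM and 56.5 to 68.9 in resident libraries. The tumour groups overlapped and their log2 difference was -0.02 ± 0.06, while control TAM held 9.95 times the resident level.

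Prg4 and F5 were the 2 markers with a higher level in cKO-labelled than in control TAM. Prg4 (ENSMUSG00000006014, chromosome 1, 150449412 to 150466165, minus strand) encodes lubricin, a proteoglycan that coats joint and serosal surfaces, and was at 110, 114 and 115 FPKM in cKO-labelled TAM, 99.5, 95.6 and 98.8 in control TAM and 46.8 to 49.1 in resident libraries. The groups did not overlap, with ratios of 1.15 (cKO-labelled to control TAM) and 2.03 (control TAM to resident). Exons on the other strand overlap 4 of the markers, and reads there cannot be told apart: Tpr covers 204 of the 4280 exonic bases of Prg4, noncoding genes cover 438 and 186 of 4413 in Selp and 262 of 7430 in F5, and a noncoding transcript covers 93 of 6508 in Gata6. F5 (ENSMUSG00000026579, chromosome 1, 164151838 to 164220277, plus strand), coagulation factor V, the cofactor that speeds thrombin formation, was at 13.8, 13.4 and 13.9 FPKM in cKO-labelled TAM, 12.99, 11.99 and 12.13 in control TAM and 1.83 to 2.32 in resident libraries. Its ratios were 1.11 and 5.83, and when each library was rescaled to a common total the 2 tumour groups overlapped.

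Naip1, Garnl3 and Aspa act inside the cell. Garnl3 (ENSMUSG00000038860, chromosome 2, 32986224 to 33131654, minus strand), whose protein holds a domain of GTPase-activating proteins, was at 13.6, 12.9 and 13.1 FPKM in cKO-labelled TAM, 20.3, 20.7 and 19.2 in control TAM and 2.12 to 2.85 in resident libraries. As for Gata6, the 3 groups did not overlap and cKO-labelled TAM lay between the others, at 0.659 times control TAM (log2 difference -0.57 ± 0.08). Aspa (ENSMUSG00000020774, chromosome 11, 73304992 to 73329596, minus strand), the aspartoacylase that cleaves N-acetylaspartate, was at 9.17, 10.1 and 10.3 FPKM in cKO-labelled TAM, 10.97, 11.2 and 12.1 in control TAM and 1.70 to 2.10 in resident libraries. Its cKO-labelled mean was 0.860 times that of control TAM, a smaller step than that of Gata6, and control TAM held 5.82 times the resident level. Naip1 (ENSMUSG00000021640, chromosome 13, 100407764 to 100452869, minus strand), a sensor of needle proteins of bacterial secretion systems, was the scarcest marker in both tumour groups, at 1.40, 1.64 and 1.96 FPKM in cKO-labelled TAM, 3.06, 2.55 and 2.76 in control TAM and 0.925 to 1.60 in resident libraries. It was the 1 marker whose cKO-labelled and resident libraries overlapped. Its coefficient of variation was also the highest, 16.8% in cKO-labelled TAM, 9.30% in control TAM and 22.2% in resident macrophages, on about 70 to 275 reads per library.

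Between the tumour groups the ratio of cKO-labelled to control TAM means differed from marker to marker, between 0.598 (Naip1) and 1.15 (Prg4). The cKO-labelled mean stood at 22.5% (Naip1), 59.1% (Gata6), 60.8% (Garnl3) and 63.6% (Icam2) of the way from the resident to the control TAM mean, at 83.1% (Aspa), 92.9% (Selp), 95.2% (Saa3) and 98.6% (Lrg1), and beyond control TAM at 113% (F5) and 130% (Prg4). Both ends of this scale share libraries with the 2 comparisons, so it is another view of the same means. Against resident macrophages, cKO-labelled TAM had 9 of the 10 markers higher without overlap (39.2% of all genes), and 8 at least 2-fold higher (12.7%). Both comparisons with resident macrophages use the same 4 resident libraries, and the values of the markers for cKO-labelled TAM ran from a log2 difference of 0.19 ± 0.11 for Naip1 to 3.31 ± 0.03 for Saa3.

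**Figure D2:**
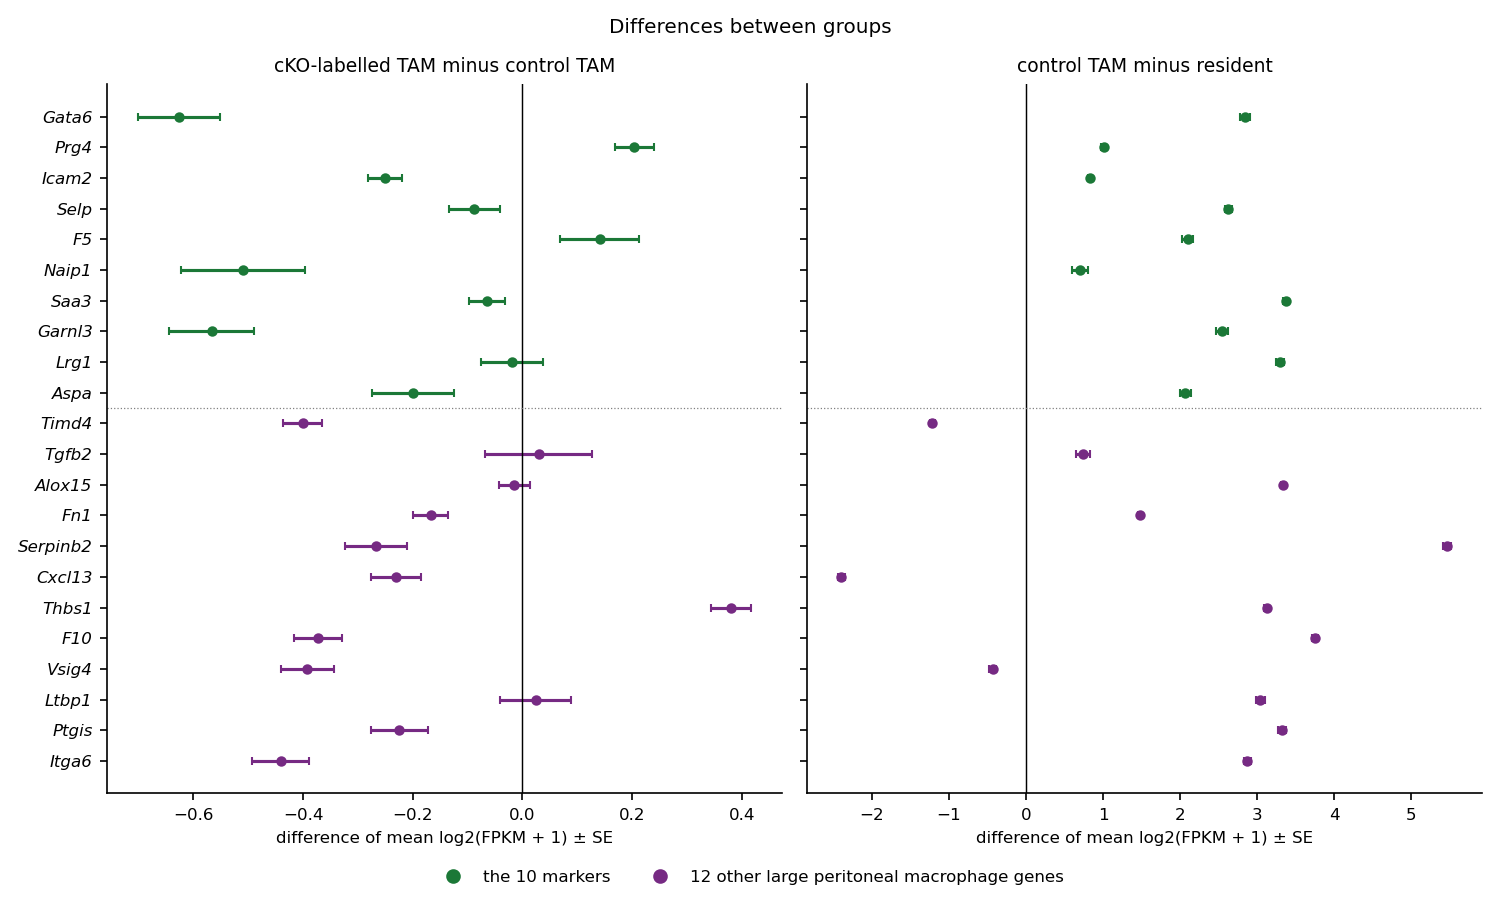
Difference of mean log2(FPKM + 1) with its SE for the 10 markers and 12 other large peritoneal macrophage genes, cKO-labelled TAM minus control TAM (left) and control TAM minus resident (right). The markers all lie right of 0 in the right panel, from Naip1 at 0.70 to Saa3 at 3.37, and on both sides of 0 in the left panel.

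A list of 12 other genes of large peritoneal macrophages, all of which were tested, ran from a log2 difference of -2.40 (Cxcl13) to 5.47 (Serpinb2) for control TAM minus resident, while the markers ran from 0.70 to 3.37. Against resident macrophages 9 rose and 3 fell in control TAM (limma, adjusted p under 0.05; 39% and 38.1% of all genes), with a median log2 difference of 2.96. Serpinb2, a plasminogen activator inhibitor, rose to 454 ± 10.5 FPKM in control TAM, against 9.29 ± 0.881 in resident macrophages (SD), and Alox15, a lipoxygenase of cavity macrophages and eosinophils, to 1389 ± 20.9, against 137 ± 3.64. F10, which encodes coagulation factor X, the enzyme that factor V serves, rose to 216 ± 3.33 FPKM, against 15.1 ± 0.850 (log2 difference 3.75, adjusted p = 7.29e-20). The 3 genes that fell were the phosphatidylserine receptor Timd4 (91.2 ± 3.82 FPKM in control TAM, 213 ± 3.43 in resident), the B cell attractant Cxcl13 (70.5 ± 1.75 and 376 ± 16.01) and the complement receptor Vsig4 (95.4 ± 3.47 and 129 ± 7.05), all of which tissue macrophages outside the cavity express too.

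Between the tumour groups 8 of the 12 fell in cKO-labelled TAM and 1 rose, where 19.1% and 20.5% of all genes did, with a median log2 difference of -0.23. Itga6, a laminin-binding integrin subunit, fell to 36.1 ± 1.36 FPKM in cKO-labelled TAM, against 49.4 ± 1.26 in control TAM (log2 difference -0.44, limma adjusted p = 8.21e-06). Timd4 stood at 68.8 ± 0.796 and 91.2 ± 3.82 FPKM, and F10 at 167 ± 2.73 and 216 ± 3.33. Thbs1, which encodes the matrix protein thrombospondin 1, was the 1 gene that rose (295 ± 6.17 and 226 ± 4.18 FPKM, adjusted p = 1.13e-06). Alox15, Tgfb2 and Ltbp1 did not pass the test (adjusted p = 0.720, 0.833 and 0.795). When each library was rescaled to a common total, 32.8% of all calls in this comparison were higher, against 51.8% with the deposited values, and in control TAM against resident macrophages 66.2%, against 50.6%. The median of all genes moved there to -0.05 and 0.18, and this list then had 1 gene risen and 9 fallen in cKO-labelled TAM, with its counts against resident macrophages as before.

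Small peritoneal macrophages are the monocyte-derived cells that share the cavity, marked by MHC class II, Ccr2, Cd226 and Irf4. Of 13 such genes, all tested, 9 rose and 1 fell in cKO-labelled against control TAM (median log2 difference 0.48). In control TAM against resident macrophages 2 rose and 11 fell (median -0.76). Among all genes tested, 20.5% rose and 19.1% fell in the first comparison, and 39% and 38.1% in the second. These shares apply to every list below. Retnla, a resistin-like secreted protein, rose to 1306 ± 86.1 FPKM in cKO-labelled TAM, against 241 ± 8.39 in control TAM (adjusted p = 2.17e-15). The lectin gene Clec10a was at 120 ± 3.02 and 26.4 ± 1.81 FPKM, and the folate receptor gene Folr2 at 52.2 ± 3.09 and 17.3 ± 1.04. The MHC class II gene H2-Ab1 rose too, to 15582 ± 319 FPKM, against 11009 ± 315. Ciita, the activator of MHC class II genes, was the 1 gene that fell (29.6 ± 0.376 and 36.1 ± 1.79 FPKM, adjusted p = 0.000266). Ccr2, Irf4 and Itgax did not pass the test there. Retnla, Folr2, Mrc1 and Clec10a mark resident macrophages of many organs as well, and in resident libraries they stood at 10266 ± 482, 212 ± 6.51, 199 ± 11.2 and 208 ± 2.62 FPKM.

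**Figure D3:**
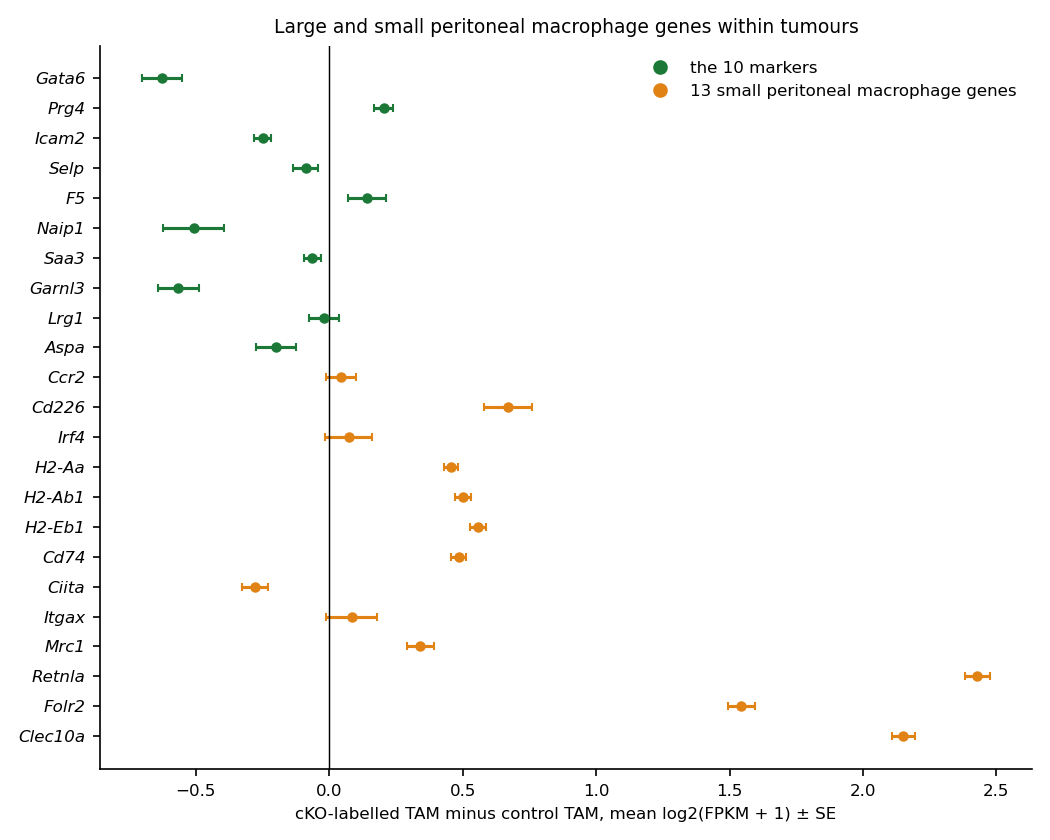
Difference of mean log2(FPKM + 1) with its SE, cKO-labelled TAM minus control TAM, for the 10 markers and 13 small peritoneal macrophage genes. Retnla, Clec10a and Folr2 lie farthest right, at 2.43, 2.15 and 1.54, and Gata6 farthest left, at -0.63.

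Genes of the retinoid pathway and of transcription factors that act with Gata6 moved both ways. Of 16 tested, 6 rose and 5 fell in cKO-labelled against control TAM (20.5% and 19.1% of all genes), with a median log2 difference of 0.03. In control TAM against resident macrophages 8 rose and 7 fell (39% and 38.1% of all genes), with a median of 0.35. Rarb, a retinoic acid receptor gene, was at 2.99 ± 0.434 FPKM in cKO-labelled TAM, 6.59 ± 0.475 in control TAM and 2.93 ± 0.0970 in resident macrophages. Its difference between the tumour groups passed the test (log2 difference -0.93, limma adjusted p = 6.29e-07). Rarg, another such receptor gene, went the other way, at 7.59 ± 0.331, 5.62 ± 0.04135 and 8.61 ± 0.310 FPKM. Its difference between the tumour groups passed the test too (limma adjusted p = 0.000195). Aldh1a2, which makes retinoic acid, fell to 9.56 ± 0.743 FPKM in cKO-labelled TAM, against 12.7 ± 1.35 in control TAM, and both lay below the 31.7 ± 0.792 FPKM of resident macrophages. Aldh1a3, which makes it too, rose to 5.97 ± 0.346 FPKM in cKO-labelled TAM, against 4.66 ± 0.538 in control TAM (limma adjusted p = 0.0244), and both lay above the 0.245 ± 0.136 FPKM of resident macrophages. Aldh1a1, a further such enzyme gene, was at 0.411 ± 0.0907, 1.44 ± 0.476 and 2.82 ± 0.598 FPKM in cKO-labelled TAM, control TAM and resident macrophages. Cyp26a1, which degrades retinoic acid, rose to 77.4 ± 2.67 FPKM in control TAM, against 1.22 ± 0.341 in resident macrophages (log2 difference 5.15, limma adjusted p = 1.76e-17). In cKO-labelled TAM Cyp26a1 rose further, to 93.6 ± 0.470 FPKM (limma adjusted p = 0.0286). Dhrs3, of the same list, was at 107 ± 1.10, 100.1 ± 1.54 and 228.1 ± 2.365 FPKM in cKO-labelled TAM, control TAM and resident macrophages. It was called higher in cKO-labelled than in control TAM (limma adjusted p = 0.0202). Bhlhe40, a factor that lets cavity macrophages divide, was at 135 ± 1.31, 156 ± 3.98 and 23.5 ± 1.31 FPKM in cKO-labelled TAM, control TAM and resident macrophages. Rxra, needed to keep large peritoneal macrophages, fell in control TAM (7.56 ± 0.434 FPKM, against 11.4 ± 0.645 in resident), and the cKO-labelled value of 7.04 ± 0.278 did not differ from it past the threshold (adjusted p = 0.300).

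**Figure D4:**
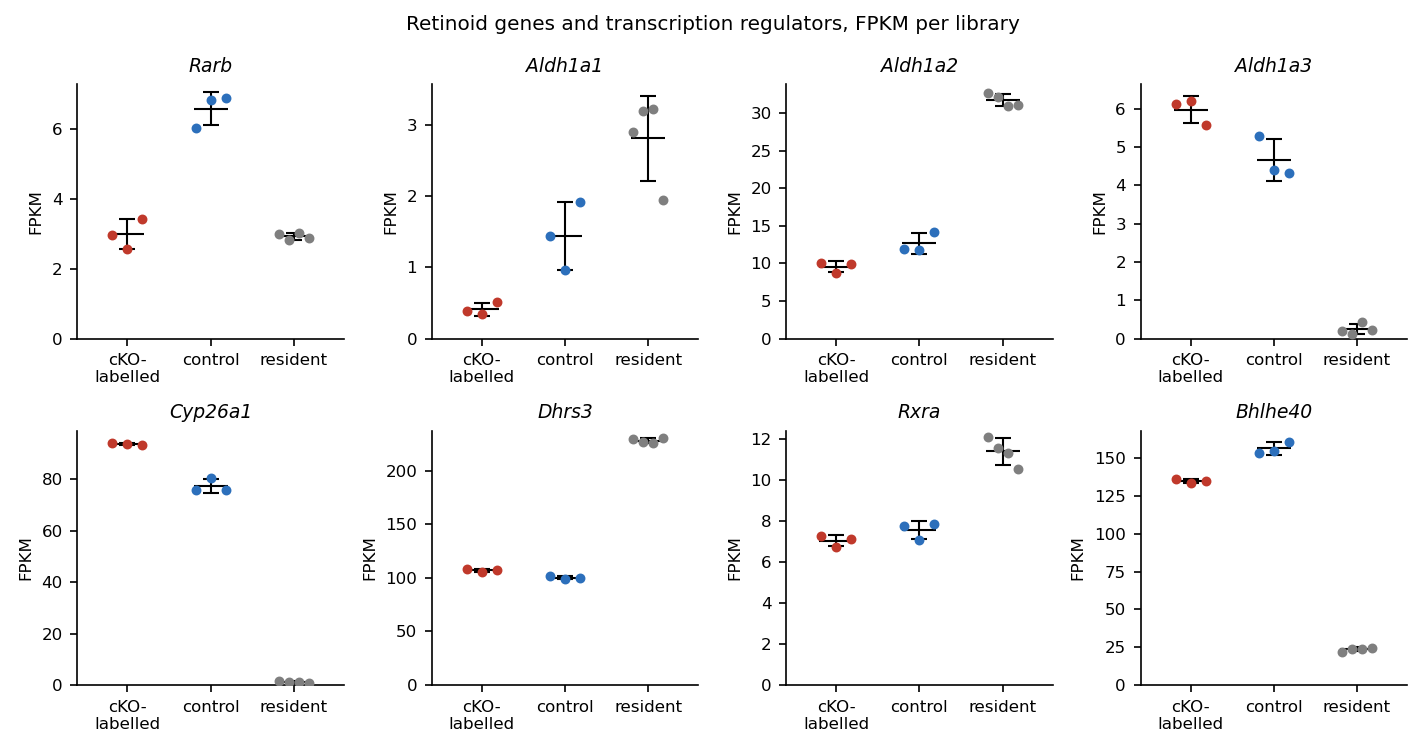
FPKM of 8 retinoid and regulator genes in each library (points) with the mean and SD of each group (bars), in the order cKO-labelled TAM, control TAM, resident. Rarb is highest in control TAM, and Cyp26a1 is near 0 only in resident macrophages.

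Relatives of the markers were measured beside them. Of the other GATA factors, Gata1, known from red cells, megakaryocytes and eosinophils, was at 12.7 ± 1.17 FPKM in cKO-labelled TAM, 7.44 ± 0.893 in control TAM and 0.122 ± 0.0738 in resident macrophages. Gata1 thus rose where Gata6 was lower (log2 difference 0.70, adjusted p = 3.33e-05). The GATA list held 3 tested genes, of which 1 rose in cKO-labelled against control TAM and 3 rose in control TAM against resident macrophages; Gata5 and the cofactor Zfpm1 were at most 1.49 and 1.40 FPKM on average. The NAIP and NLRC4 list held 10 tested genes, of which 1 rose and 2 fell in cKO-labelled TAM (20.5% and 19.1% of all genes). In control TAM against resident macrophages 9 of the 10 rose and 1 fell (39% and 38.1% of all genes). Naip2 was at 4.84 ± 0.0880, 6.45 ± 0.162 and 5.08 ± 0.633 FPKM in cKO-labelled TAM, control TAM and resident macrophages, Naip5 at 4.18 ± 0.336, 4.80 ± 0.446 and 4.05 ± 0.200, and Naip6 at 1.21 ± 0.172, 1.32 ± 0.139 and 1.04 ± 0.0623. These copies are similar in sequence, and how reads that match several of them were counted is not given in the sources used here, so the values of Naip1 and its relatives are uncertain. Nlrc4, the adaptor they signal through, fell to 2.86 ± 0.219 FPKM in control TAM, against 5.36 ± 0.246 in resident macrophages.

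Selp and F5 are next to each other on chromosome 1, on the same strand and 1811 bases apart, with 0 protein-coding genes between them. Prg4 also lies on chromosome 1. In the selectin and ICAM list, 5 genes were tested. Of these, 4 rose and 0 fell in control TAM against resident macrophages (39% and 38.1% of all genes). In cKO-labelled against control TAM 1 rose and 2 fell (20.5% and 19.1% of all genes). Icam1, the inducible relative of Icam2, was at 164 ± 3.70, 161 ± 2.87 and 52.3 ± 1.69 FPKM in cKO-labelled TAM, control TAM and resident macrophages, and Itgb2, the beta chain of their integrin receptor, at 645 ± 10.3, 853 ± 13.5 and 430 ± 15.1.

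Partners of the secreted markers were also followed. In the acute phase list, 10 genes were tested. Of these, 6 rose and 3 fell in control TAM against resident macrophages (39% and 38.1% of all genes). In cKO-labelled against control TAM 6 rose and 4 fell (20.5% and 19.1% of all genes). Hp, which encodes the acute phase protein haptoglobin, was at 217 ± 7.67, 178 ± 10.8 and 11.05 ± 1.14 FPKM in cKO-labelled TAM, control TAM and resident macrophages. Saa1, Saa2 and Saa4 were looked for by symbol but had no values in the deposited data. In the coagulation and fibrinolysis list, 13 genes were tested, of which 9 rose and 4 fell in control TAM, and 3 rose and 5 fell in cKO-labelled TAM. Tissue factor (F3) and factor VII (F7), which start clotting, rose to 34.0 ± 1.24 and 95.6 ± 3.05 FPKM in control TAM, against 1.63 ± 0.421 and 5.52 ± 0.606 in resident macrophages. F13a1, which encodes the fibrin crosslinking subunit of factor XIII, fell to 100.5 ± 3.599 FPKM in control TAM, against 1267 ± 42.8 in resident macrophages. In the list of TGF-beta partners of LRG1, 12 genes were tested, of which 3 rose and 7 fell in control TAM and 5 rose and 3 fell in cKO-labelled TAM; Eng, the endothelial coreceptor that LRG1 binds, was at 15.5 ± 0.531, 14.7 ± 0.716 and 17.3 ± 1.16 FPKM in the 3 groups.

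Markers of other cells that use some of the 10 genes moved with the groups. Sums here and below are over all listed genes with deposited values, tested or not. Endothelial genes, 7 with values and 4 of them tested, summed to 22.9 to 24.7 FPKM in cKO-labelled TAM. Their sum was 3.13 to 3.86 in control TAM and 2.88 to 3.64 in resident macrophages. All 4 tested genes rose in cKO-labelled TAM, where 20.5% of all genes did. Plvap, at 16.6 ± 1.12 FPKM there and 0.863 ± 0.402 in control TAM, made up most of the cKO-labelled sum. In control TAM against resident macrophages 1 rose and 0 fell (39% and 38.1% of all genes). Platelet genes, 4 tested, summed to 346 to 402, 207 to 229 and 1278 to 1367 FPKM in cKO-labelled TAM, control TAM and resident macrophages, nearly all of it Pf4, which macrophages also express. Of these, 3 rose and 0 fell in cKO-labelled TAM, and 1 rose and 3 fell in control TAM. The platelet integrin gene Itgb3 was at 1.43 ± 0.196, 0.924 ± 0.136 and 0.136 ± 0.0634 FPKM.

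Mesothelial genes, of the cell layer that lines the cavity, summed to 260 to 275 FPKM in cKO-labelled TAM, 273 to 284 in control TAM and 9.51 to 10.2 in resident macrophages. Of 9 tested, 8 rose and 0 fell in control TAM against resident macrophages (39% and 38.1% of all genes). In cKO-labelled against control TAM 5 fell and 0 rose (19.1% and 20.5% of all genes). Most of the sum in TAM was keratin RNA, which tumour epithelium shares. Msln was at 19.7 ± 0.623, 24.7 ± 2.08 and 0.486 ± 0.0579 FPKM, and whether it came from mesothelium or tumour cells was not tested. The other genes were scarce, with Lrrn4 at 0.634 ± 0.125, 2.59 ± 0.0766 and 0.00483 ± 0.00966 FPKM and Upk3b at 1.21, 2.13 and 0.390. Rspo1 did not pass the test in either comparison (2.128, 1.675 and 1.937 FPKM). Neutrophil genes, 11 tested, summed to 1637 to 1800, 1298 to 1324 and 360 to 370 FPKM. The resident sum was mostly Mmp9 (329 ± 3.73), and the sums of cKO-labelled and control TAM mostly Retnlg (1420 ± 78.1 and 1166 ± 14.9). Retnlg was at 0.332 ± 0.245 FPKM in resident macrophages. Of the neutrophil genes tested, 9 rose and 1 fell in control TAM, and 8 rose and 1 fell in cKO-labelled TAM. S100a9 was at 57.0 ± 3.44, 25.4 ± 3.21 and 0.0320 ± 0.0641 FPKM in cKO-labelled TAM, control TAM and resident macrophages. Ltf was at 13.2 ± 1.70, 4.465 ± 0.567 and 0.185 ± 0.05195, and Cxcr2 at 5.46 ± 0.285, 1.59 ± 0.148 and 0.0136 ± 0.02715. Epithelial genes, 10 tested, summed to 283 to 296, 277 to 284 and 84.6 to 96.2 FPKM, with 9 risen and 1 fallen in control TAM and 4 and 1 in cKO-labelled TAM. The resident sum was mostly Tff2, the 1 gene that fell in control TAM, at 1.67, 0.285 and 78.6 FPKM in the 3 groups. Fibroblast genes, 8 tested, summed to 139 to 143, 174 to 177 and 46.4 to 49.0 FPKM, with 5 risen and 1 fallen in control TAM and 4 and 2 in cKO-labelled TAM. Acinar genes, 12 tested, summed to 318 to 328, 73.8 to 77.0 and 28306 to 30133 FPKM, and all 12 fell in control TAM and rose in cKO-labelled TAM. Of B and plasma cell genes, 6 tested, all 6 fell in control TAM and 4 rose and 0 fell in cKO-labelled TAM, with sums of 241 to 244, 85.8 to 94.7 and 900.1 to 919 FPKM. Of the macrophage-defining genes 1 rose and 6 fell in cKO-labelled TAM, and 5 rose and 4 fell in control TAM. Csf1r, which fell in both comparisons, was at 454 ± 6.90, 534 ± 7.65 and 1238 ± 6.40 FPKM. Among the 5 that rose in control TAM, Cd68 was at 1034.8 ± 14.6, 1013.7 ± 9.92 and 920 ± 27.0 FPKM. Fcgr1 was at 123.8 ± 1.41, 119.3 ± 2.04 and 46.4 ± 1.48, and Itgam at 59.65 ± 3.325, 75.9 ± 5.23 and 31.4 ± 0.995. The part of these cells in the levels of the markers was not tested.

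The genes whose pattern over the 10 libraries was most like that of a marker were found by the root mean square difference of log2(FPKM + 1), each gene centred on its own mean. For Gata6 these were Emilin1, Ldha, Ccdc80, Bnip3 and Me1, at 0.0978 to 0.117 log2 units. Emilin1, which encodes an elastic fibre glycoprotein, was at 56.8 ± 3.99 FPKM in cKO-labelled TAM, 83.2 ± 2.58 in control TAM and 12.15 ± 0.462 in resident macrophages, and Ldha, lactate dehydrogenase A, at 1158 ± 28.9, 1574 ± 7.72 and 250 ± 5.73. For Prg4 they were Il2rg, Emb, Sorl1, Plppr3 and Aig1, at 0.0418 to 0.0601 log2 units. For Saa3 they were Alox15, Adamdec1, Tgtp1, Ackr3 and Lrg1, at 0.0421 to 0.0835. Among these 5 closest of 11127 genes, Lrg1 is another marker and Alox15 is in the peritoneal macrophage list. Both were chosen with earlier results of these data known, so nothing is read from their place here.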

How the data were processed

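RNA-seq of sorted macrophages gave 10 libraries in 3 groups. Per the labels' protocols, amplified RNA (SMART-Seq v4) went into Nextera XT libraries, a method that does not mark strand. The authors deposited FPKM, 1 column per library; STAR, edgeR, mm10 and GRCm38 are listed without a role per the submitters' processing notes, and gene lengths, scaling and filter were not given in the sources used here. Columns were matched to samples by title. Library sizes were recovered as the size at which low values became whole reads (85.9% to 87.3% of values within 0.05, with GENCODE M21 transcript lengths). No pair of libraries of the same group shared an identical nonzero value, and pairs across groups were not compared.

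A linear model (limma 3.58.1, R 4.3.3) was run on log2(FPKM + 1) of the 11127 genes with at least 1 FPKM in at least 3 libraries, in 1 model of 3 group means with a variance trend (7 residual degrees of freedom), and p-values were adjusted by Benjamini-Hochberg over all genes, at 0.05. They measure the spread between these libraries, which may be partly technical. The fit was tested on simulated data. The markers and the 18 lists were chosen with earlier results of these data known; the markers have no test. In the selectin and ICAM list, 1 gene is not reported here and was left out of the counts. Some genes are in 2 lists, the keratins among them. Named genes are drawn from a rule: the GATA, NAIP, Saa, selectin and ICAM genes, of each other list the 2 most abundant members and up to 3 called members with the largest difference per comparison, and the 5 genes most like Gata6, Prg4 and Saa3. Cxcl13, Tgfb2, Ltbp1, Ciita, Ccr2, Irf4, Nlrc4, Rxra, Aldh1a2, Dhrs3, Ddx3y, Xist, Eng, Msln and Rspo1 are outside it and were chosen after their values were seen. Coordinates are of GRCm38 (GENCODE M21), 1-based. Alternatives were pseudocounts of 0.1 and 0.5, no filter or 5 FPKM, other scalings, only the 2 groups compared, a replicate block and leaving out each library.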

Additional observations from a re-analysis of the deposited data

Results flagged for a closer look

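Among 49 genes of the marker, peritoneal macrophage, NAIP and selectin lists that reached 1 FPKM in a resident library, 6 had 1 resident library far from the other 3, by a gap to the nearest library above Dixon's 95% critical share of the range over the 4; chance flags about 1 in 20. Among the 10 markers this was Garnl3 alone, with resident replicate 2 lowest at 2.12 FPKM, against 2.73 to 2.85 in the others (gap 0.8319 of the range). Tgfb2 was lowest in resident replicate 2 too (0.740 FPKM, others 1.12 to 1.20, gap 0.8291). Resident replicate 1 was lowest for Vsig4 (118 FPKM, others 132 to 133, gap 0.891) and highest for Cd74 (27108, others 25521 to 25623, gap 0.936). Resident replicate 4 was highest for Ltbp1 (2.03, others 1.65 to 1.68, gap 0.923) and lowest for Itgax (0.592, others 0.976 to 1.00, gap 0.937).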

How the results depend on the processing

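The counts of genes called, of other large peritoneal macrophage genes called and of markers 2-fold apart without overlap stayed within 1.5 times their main value under every alternative run, left-out libraries among them. The counts of markers without overlap did too, a check added after seeing the data, except that the number higher in cKO-labelled than in control TAM was 1, against 2, when each library was rescaled to a common total, with or without the acinar genes, since F5 then overlapped. Of the log2 differences of the markers, only that of Lrg1 between the TAM groups changed sign when a library was left out: without cKO-labelled TAM replicate 3 it was 0.0074 and without control TAM replicate 2 it was 0.0032, and over all left-out libraries it ran from -0.0567 to 0.0074, against -0.0187 with all; the cause was not tested. A further 69 of the 597 alternative values of these differences moved by more than 1 residual SD without a change of sign, mostly with another pseudocount or scaling. No pairing by the replicate numbers of the titles was seen. Same-numbered libraries of the TAM groups correlated at 0.0042, -0.0442 and 0.0884 in their deviations from the group means. Differently numbered ones ran from -0.1329 to 0.1224. With 3 libraries per group, such values cannot exclude a pairing. With the replicate block, the genes called between the TAM groups numbered 4342, against 4410. Depth limits Naip1, at about 70 to 275 reads per library, and Gata6 in resident libraries, at about 57 to 111 reads. These counts are approximate, since none of them came out within 0.05 of a whole read with the transcript length assumed.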
